A study of Mus musculus with 26 samples.

Results

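Klf2, Klf4 and Klf5 are members of the Krüppel-like family that are tied to the naive state of mouse pluripotent cells, and their surroundings were followed here in every ATAC-seq peak list of a study of naive, formative and primed cells. ATAC-seq marks accessible DNA with the Tn5 transposase, and a peak is a stretch where its insertions pile up. All peaks that overlapped the span of one of the 3 genes, or the 50 kb on either side, were taken from the 26 lists. This gave 133 of 451563 peaks, which merged into 16 of 75600 regions across the lists, for 3 of 21887 protein-coding genes. A region was called a gene-end region when it lay within 1 kb of an end of its Klf gene, and distal otherwise.

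Krüppel-like factors bind GC-rich and CACCC-type DNA through zinc fingers at their carboxyl end. In mouse ES cells Klf4 is a target of LIF and STAT3 signalling, Klf2 is linked to inhibition of the MEK/ERK pathway, and Klf5 shares part of their role in holding the naive state. Klf4 is also one of the factors used to reprogram somatic cells, and the naive members of the family are known to fall in expression when ES cells leave the naive state.

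The first set held 18 libraries, with 3 each of ES cells in 2iL medium at passage 16, of formative stem (FS) cells in A3XR medium as the cultures FS1 at passage 21 and FS2 at passage 29, of epiblast stem cells (EpiSCs) in AF medium at passage 22 (EpiSC_AF), and of EpiSCs in AFX medium at passages 14 (EpiSC_AFX1) and 16 (EpiSC_AFX2). A further set, named Rd2, held 2 libraries of ES cells in 2iL at passage 33 that carry the source label Rd2GFP (Rd2_ES), 4 of epiblast-like cells (Rd2_EpiLC), which were made from ES cells in 2 days in AF with KSR and sorted as GFP-low, and 2 of passage 16 EpiSCs kept in AFX (Rd2_AFX). FS cells are placed between naive ES cells and primed EpiSCs, and each library came from 50000 cells. The labels do not say whether libraries of a group came from separate cultures, so every p below measures the spread between these libraries, which may be technical. The 4 Rd2_EpiLC libraries carry numbers of 2 parts, so they may be 2 samples with 2 libraries each, and then n is 2 and the exact test has fewer assignments than given below.

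The lists differed in length, from 8044 to 10961 peaks in ES, 11796 to 14147 in FS2, 23883 to 31263 in FS1 and 15505 to 29575 in the EpiSCs of the first set. Rd2_ES had only 471 and 2576 peaks, against 7469 to 26045 in Rd2_EpiLC and 10719 to 11252 in Rd2_AFX. The first set was therefore compared both as deposited and at equal list length, taking from each list its 8044 peaks of highest −log10 p. Of the markers of the cell types, Zfp42 had a gene-end peak in 3 of 3 ES lists, 0 of 6 FS lists and 0 of 6 EpiSC_AFX lists, but also in 1 of 3 EpiSC_AF lists and 2 of 4 Rd2_EpiLC lists, while Tcf15 had one in 0 of 3, 6 of 6 and 6 of 6. Rd2_ES had a gene-end peak at 0 of 3 naive markers in either list. Its lists had one at only 1.59% and 9.71% of all coding genes, so the naive label could not be checked from them. Of the other naive markers, Tbx3 had an end peak in every group but Rd2_ES and Esrrb in 1 list. Of the other formative markers, Fgf5 had one in 4 of 6 FS and 0 of 4 Rd2_EpiLC lists, and Otx2 in 1 list. Fgf5 also had one in 3 of 3 EpiSC_AF and 6 of 6 EpiSC_AFX lists, so it did not part FS from EpiSCs. The fibroblast markers Col1a1, Col1a2, Thy1 and Twist1 had gene-end peaks in no ES and no Rd2_ES list, in 2 to 5 of 6 FS lists each, in 4 to 6 of 6 EpiSC_AFX lists, in 0 to 3 of 3 EpiSC_AF lists and in 2 to 3 of 4 Rd2_EpiLC lists, and their part in the results below was not tested.

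The promoters of Klf2 and Klf4 are shown because the gene-end peaks cover them. The sequences are the 250 bases before the transcription start in the RefSeq table of GRCm38.p6, read 5′ to 3′ on the strand of the gene, with the GC boxes (GGGCGG or its complement), a core that Krüppel-like and Sp factors bind, in capitals. The Klf2 stretch is chr8:72318812-72319061 on the plus strand and the Klf4 stretch is chr4:55532476-55532725 on the minus strand.
Klf2: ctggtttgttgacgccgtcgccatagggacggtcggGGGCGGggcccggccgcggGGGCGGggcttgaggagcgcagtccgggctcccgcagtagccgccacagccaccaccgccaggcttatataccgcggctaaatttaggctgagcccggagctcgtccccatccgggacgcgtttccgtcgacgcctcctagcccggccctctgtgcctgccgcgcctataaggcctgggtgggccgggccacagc
Klf4: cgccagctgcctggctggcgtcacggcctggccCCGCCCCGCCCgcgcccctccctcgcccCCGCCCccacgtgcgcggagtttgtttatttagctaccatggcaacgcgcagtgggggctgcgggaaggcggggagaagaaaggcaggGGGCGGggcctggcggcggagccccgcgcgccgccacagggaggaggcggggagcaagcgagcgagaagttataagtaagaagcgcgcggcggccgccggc

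Both promoters were rich in CpG. The Klf2 promoter had a GC content of 71.2% and 29 CpG pairs, and the Klf4 promoter 74% and 32, against medians of 52.4% and 6 over the 32851 promoters of the same length in the table. Their ratios of observed to expected CpG, 0.915 and 0.941, were above those of 89.3% and 91% of promoters. Klf2 carried 2 GC boxes and Klf4 carried 4, counting both strands and overlapping matches, and 32.7% of all promoters hold at least 1. The shorter CACCC motif occurred 1 time in Klf2 and 0 times in Klf4, and is held by 52% of promoters. A match to the MEF2 motif lay 118 bases before the Klf2 start, and 2.92% of promoters hold one. The Klf2 promoter is known in other cells as a target of MEF2 factors, which bind this motif. The letters of a STAT site, TTCNNNGAA, were not in either window (7.02% of promoters hold them), nor was the octamer ATGCAAAT (1.6%). A match describes the letters only.

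Each of the 3 genes had a peak at 1 end in some naive, some formative and some primed lists. For Klf4 this held in 1 of 3 FS2 lists and 0 of 2 Rd2_ES lists. The gene-end regions gave 65 of the 133 peaks (48.9%). Klf5 was the most constant, with a gene-end peak in 25 of 26 lists, against 22 for Klf2 and 18 for Klf4. At equal length Klf5 had it in 18 of 18 lists of the first set, Klf2 in 14 and Klf4 in 10. Of all protein-coding genes, 5.87% had a gene-end peak in all 18 lists at equal length, 16.3% in at least 14 and 22.9% in at least 10. A single list at equal length had a gene-end peak at 20.6% to 26.1% of genes. The end peaks of these genes, known as naive factors, were therefore not restricted to ES lists.

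**Figure D1:**
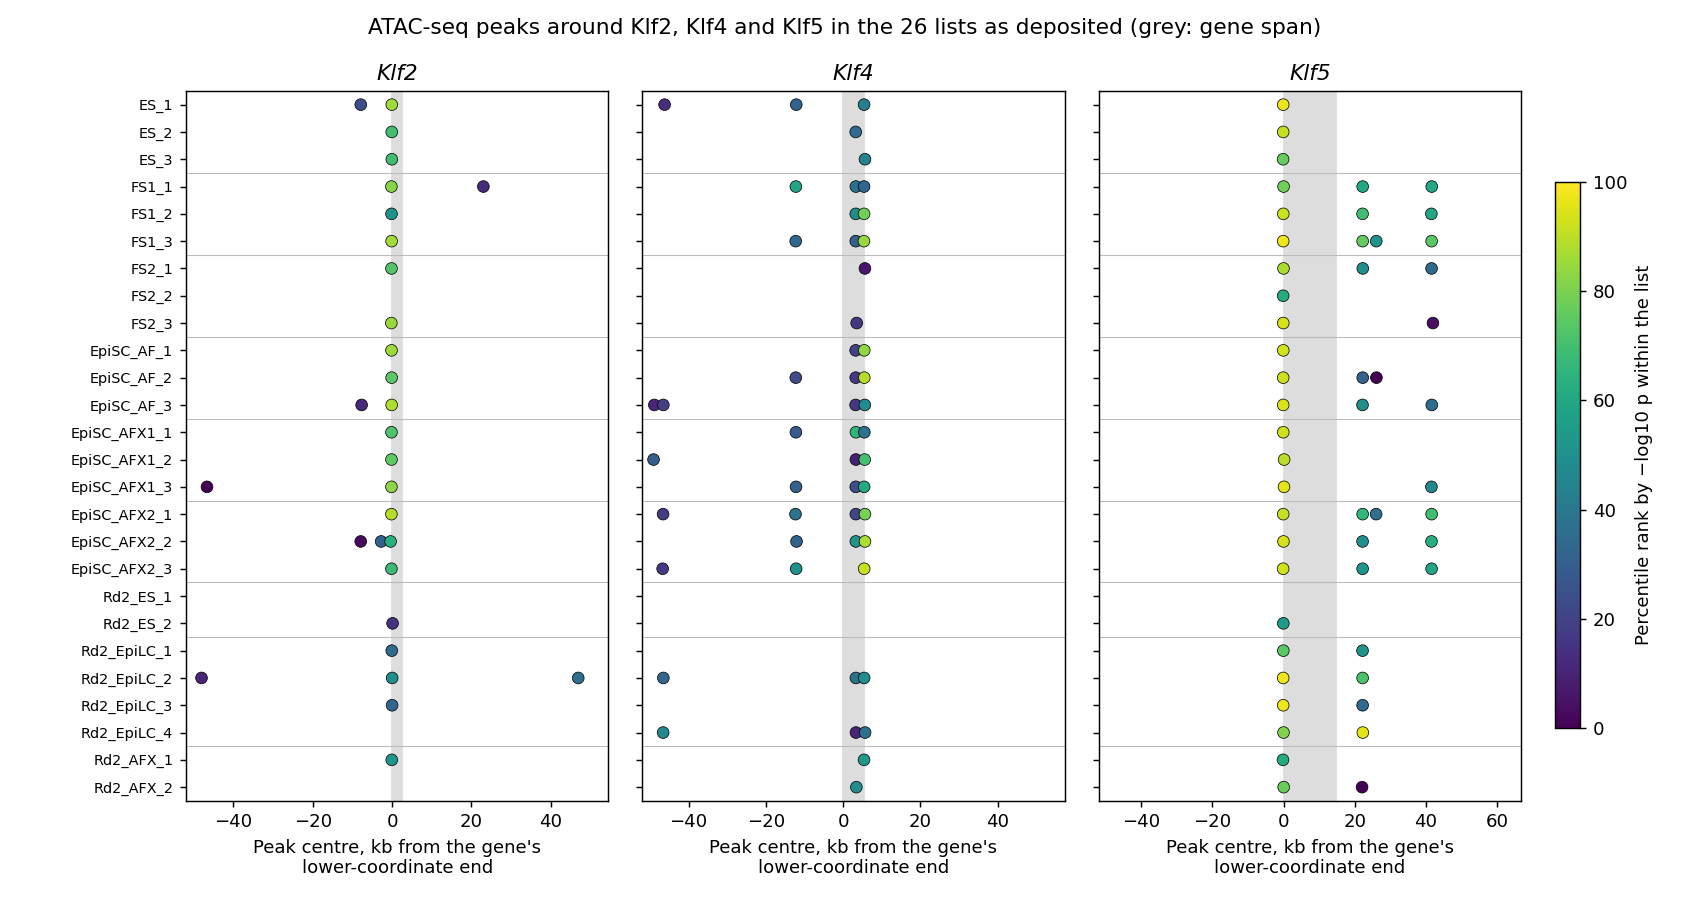
Each point is a peak of 1 library (rows) in the lists as deposited, at its distance in kb from the lower-coordinate end of Klf2, Klf4 or Klf5 (grey span), coloured by percentile rank of −log10 p within its list. The column of Klf5 points at 0 runs through every row but Rd2_ES_1, and the points beyond the Klf5 span are missing from all 3 ES rows. They are also missing from the Rd2_ES rows and from FS2_2, EpiSC_AF_1, EpiSC_AFX1_1, EpiSC_AFX1_2 and Rd2_AFX_1.

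Klf5 lies at chr14:99298691-99313412 (gene 12224), and its gene-end region, chr14:99298349-99299330, covers the lower-coordinate end of the gene. The strength of a peak is given as its percentile rank by the authors' −log10 p within its own list, where 100 is the top of the list. In ES the Klf5 end peak stood at percentiles 96.9, 91.4 and 76.9, in FS1 at 78.5, 91.8 and 97.7 and in FS2 at 87.8, 61.2 and 94.1. In EpiSC_AF it stood at 93.1, 92.3 and 94.4, in EpiSC_AFX1 at 92.8, 89.8 and 95.8 and in EpiSC_AFX2 at 91.4, 93.6 and 93.2. The groups of the first set overlapped, with a median of 92.5, and the EpiSC lists were the tightest while ES and FS each had a library well below the others. In the Rd2 set the values were 73.9, 97.9, 97.5 and 81.2 in Rd2_EpiLC, 61 and 77.2 in Rd2_AFX and 55 in the longer Rd2_ES list. The missing case was the Rd2_ES list of 471 peaks. Percentiles in lists of different length describe a peak within its list and were not compared by a test.

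Klf2 lies at chr8:72319062-72321654 (gene 16598), and its gene-end region, chr8:72318207-72319450, spans the start and the promoter printed above. The Klf2 end peak stood at 85.9, 69.9 and 69.4 in ES, at 81.7, 50.6 and 86.1 in FS1 and at 73 and 84.5 in FS2, whose second library had none. In EpiSC_AF it stood at 85.2, 74.6 and 87.9, in EpiSC_AFX1 at 71.9, 75.3 and 83.2 and in EpiSC_AFX2 at 88.9, 63.5 and 67.9. All groups of the first set overlapped, around a median of 75.3. The Rd2 percentiles were lower, with 14.6 in 1 Rd2_ES list and 34.1, 48.8 and 32.6 in 3 of the 4 Rd2_EpiLC lists. The value in 1 Rd2_AFX list was 52.6, and all but this one were under every value of the first set. By rank the Rd2_ES peak was 2201 in a list of 2576 peaks, beside 1551, 2419 and 2966 in ES. The Rd2_EpiLC ranks were 6965, 12082 and 5036 and the Rd2_AFX rank was 5337, beside 1551 to 11798 in the first set. The shortest peak was 150 bp in the first set and 110 bp in the Rd2 set. The settings of neither are given in the sources used here, and set, list length and cells cannot be told apart.

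Klf4 lies at chr4:55527137-55532475 (gene 16600) on the minus strand, and its gene-end region, chr4:55532292-55533133, covers the start and the printed promoter. The Klf4 end peak stood at 42.8 and 43.8 in ES, whose second library had none, at 32.6, 78.4 and 84.6 in FS1 and at 6.02 in 1 library of FS2 only. In EpiSC_AF it stood at 83.5, 88.7 and 47.9, in EpiSC_AFX1 at 37.6, 70.4 and 60.9 and in EpiSC_AFX2 at 79.5, 87.7 and 91.6. This was the most variable of the 3 end regions, from 6.02 to 91.6 in the first set, with EpiSC_AFX2 high and FS2 low or absent. The ES percentiles come from short lists. By rank the ES peaks stood at 6269 and 5457, beside 11053, 6343 and 10740 in EpiSC_AFX1. At equal length the peak was held by 2 of 3 ES, 2 of 3 FS1 and 0 of 3 FS2 lists. It was held by 2 of 3 EpiSC_AF, 1 of 3 EpiSC_AFX1 and 3 of 3 EpiSC_AFX2 lists. In the Rd2 set only 2 of 4 Rd2_EpiLC lists, at 48.6 and 36.5, and 1 of 2 Rd2_AFX lists, at 53.6, held it. Those Rd2_EpiLC lists were the longest of the 4, with 23608 and 26045 peaks.

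**Figure D2:**
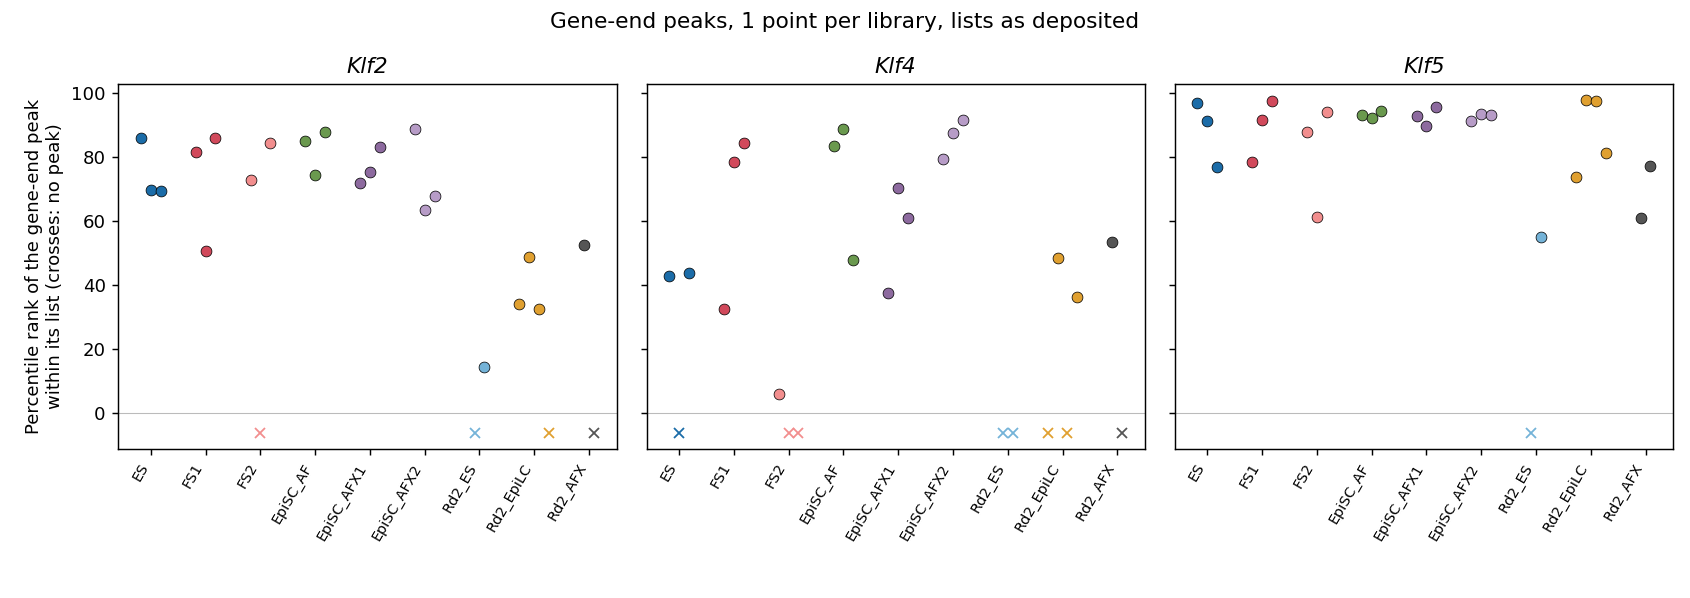
Percentile rank (vertical axis) of the gene-end peak of Klf2, Klf4 and Klf5 in each library, 1 point per library by group, with a cross where the list has no gene-end peak. Klf5 has no cross in the first set, Klf2 has 1 and Klf4 has 3, and the Klf4 points spread from 6.02 to 91.6.

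The distal regions gave 68 of the 133 peaks (51.1%). Of 13 distal regions, 4 held a peak at equal length, against 3 of 3 gene-end regions. Only the first set was cut to equal length, so the Klf2 regions seen only in Rd2_EpiLC could not hold one. Klf5 had 3 distal regions, all beyond the higher-coordinate end of the gene and none in an ES list. The nearest, 7.17 kb beyond the gene at chr14:99320578-99321116, was held as deposited by 3 of 3 FS1, 1 of 3 FS2, 2 of 3 EpiSC_AF, 0 of 3 EpiSC_AFX1 and 3 of 3 EpiSC_AFX2 lists. It was also held by 4 of 4 Rd2_EpiLC lists, 1 of 2 Rd2_AFX lists and 0 of 2 Rd2_ES lists. At equal length it remained in FS lists alone, 2 of FS1 and 1 of FS2. Between FS and EpiSC_AFX the region was then held by 3 of 6 and 0 of 6 lists (Fisher's exact test, unadjusted p = 0.182). Its ranks were 10621, 7391 and 7361 in FS1, 7084 in FS2, 14913 and 12632 in EpiSC_AF and 8754, 14860 and 12296 in EpiSC_AFX2, where 1 is the strongest peak of a list. The FS peaks kept at equal length lay not far inside the limit of 8044, and the first EpiSC_AFX2 peak, at 8754, fell not far outside. In Rd2_EpiLC the ranks were 5135, 6779, 4905 and 1116, or percentiles of 51.4, 71.3, 34.3 and 95.7. Of the 9 ranks in the first set, 4 lie past the end of the longest ES list of 10961 peaks, 5 past that of 9705 and 6 past that of 8044, while 3 would fall within every ES list. List length and cell type cannot be told apart for this region. EpiSC_AFX1 lacked it in lists of 17701 to 27485 peaks.

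A second Klf5 region, 26.7 kb beyond the gene at chr14:99340137-99340972, was held by 3 of 3 FS1, 2 of 3 FS2, 1 of 3 EpiSC_AF, 1 of 3 EpiSC_AFX1 and 3 of 3 EpiSC_AFX2 lists, and by no ES list and none of the 8 Rd2 lists. It thus shared FS1 and EpiSC_AFX2 with the nearer region but was absent from all 4 Rd2_EpiLC lists, including those of 23608 and 26045 peaks. Its ranks were 10602, 9833 and 8136 in FS1, 9265 and 12442 in FS2 and 7731, 10976 and 10622 in EpiSC_AFX2. Only the first EpiSC_AFX2 peak stayed at equal length, just inside the limit of 8044, and the third FS1 peak at 8136 fell just outside. The third Klf5 region, 11.2 kb beyond the gene at chr14:99324611-99324939, had a peak in 1 library each of FS1, EpiSC_AF and EpiSC_AFX2.

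**Figure D3:**
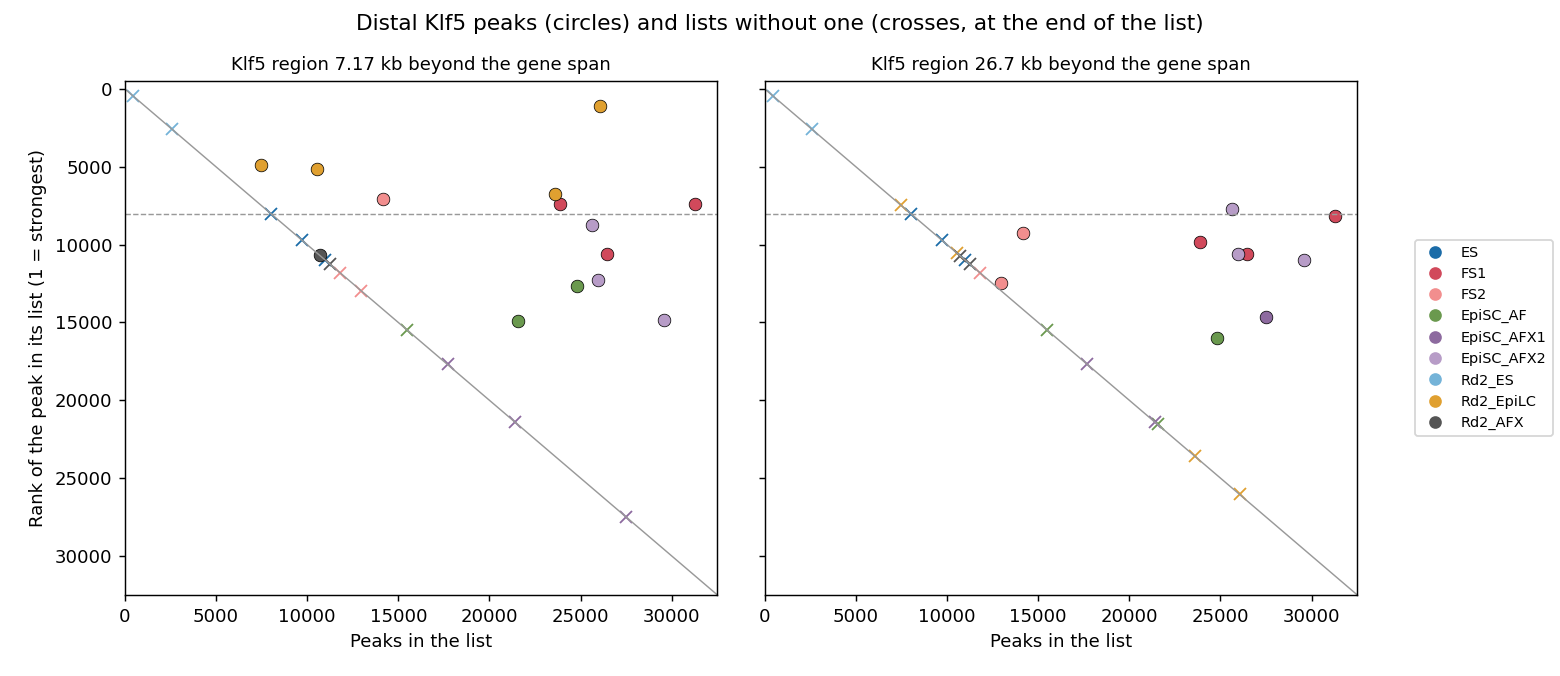
Rank of the distal Klf5 peaks in each list (vertical axis, 1 is strongest) against the number of peaks in the list (horizontal axis), for the regions 7.17 kb and 26.7 kb beyond the gene. Circles are lists with the peak, crosses on the diagonal are lists without it, and the dashed line is 8044 peaks. The ES crosses sit at the short end, while Rd2_EpiLC has 4 circles for the nearer region and 4 crosses for the farther one.

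Klf4 had the most distal peaks, 33 of its 51, against 27 of 52 for Klf5 and 8 of 30 for Klf2. A region inside the gene, chr4:55530024-55530965, 1.51 kb from the nearest end, was held by 16 of 26 lists: 1 of 3 ES, 3 of 3 FS1, 1 of 3 FS2, 3 of 3 EpiSC_AF, 3 of 3 EpiSC_AFX1, 2 of 3 EpiSC_AFX2, 2 of 4 Rd2_EpiLC and 1 of 2 Rd2_AFX. At equal length it stayed in the second ES list, at rank 5300, and the first EpiSC_AFX1 list, at 6088. The second ES list was the ES list without a Klf4 end peak. A region 11.9 kb outside the gene, chr4:55514727-55515274, past the lower-coordinate end, was held by 9 of 18 lists of the first set, 1 of them ES, and by 0 of 8 Rd2 lists. At equal length the first ES list alone held it, at rank 7524. The regions 45.9 kb and 48.7 kb away, chr4:55480213-55481243 and chr4:55477965-55478472, were held by 6 and 2 lists, and 1 ES list was among the 6.

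Klf2 had 6 distal regions, but 5 of them came from 1 library each. The other, chr8:72310953-72311473, 7.59 kb before the gene, was held by 1 library each of ES, EpiSC_AF and EpiSC_AFX2 and by none at equal length. The single-library regions lay at chr8:72270902-72271100, chr8:72272236-72272531, chr8:72316239-72316399, chr8:72341839-72342378 and chr8:72365992-72366101, and the last 2 of these are inside Eps15l1. The nearest regions past the 50 kb limit lay 51.2 kb from Klf4 on either side, with 1 list each, and the farthest inside it lay 48.7 kb from Klf4 and 48 kb from Klf2.

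Peak numbers per gene window, the span with 50 kb on each side, were compared over libraries with an exact two-sided permutation test, run on every protein-coding gene with a peak in its window and adjusted by the Benjamini-Hochberg method over those genes. A gene was also counted where the groups did not overlap. In these 5 comparisons 0 of the 16993 to 18589 genes tested passed an adjusted p of 0.05, Klf2, Klf4 and Klf5 among them, so the threshold does not tell the Klf genes from others. The groups overlapped for each of them in the 4 comparisons of the first set. The comparisons with ES share the same 3 ES libraries. FS joins FS1 and FS2, and EpiSC_AFX joins EpiSC_AFX1 and EpiSC_AFX2, with 3 libraries each. The test treats the joined libraries as exchangeable, so n counts libraries and not cultures.

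**Figure D4:**
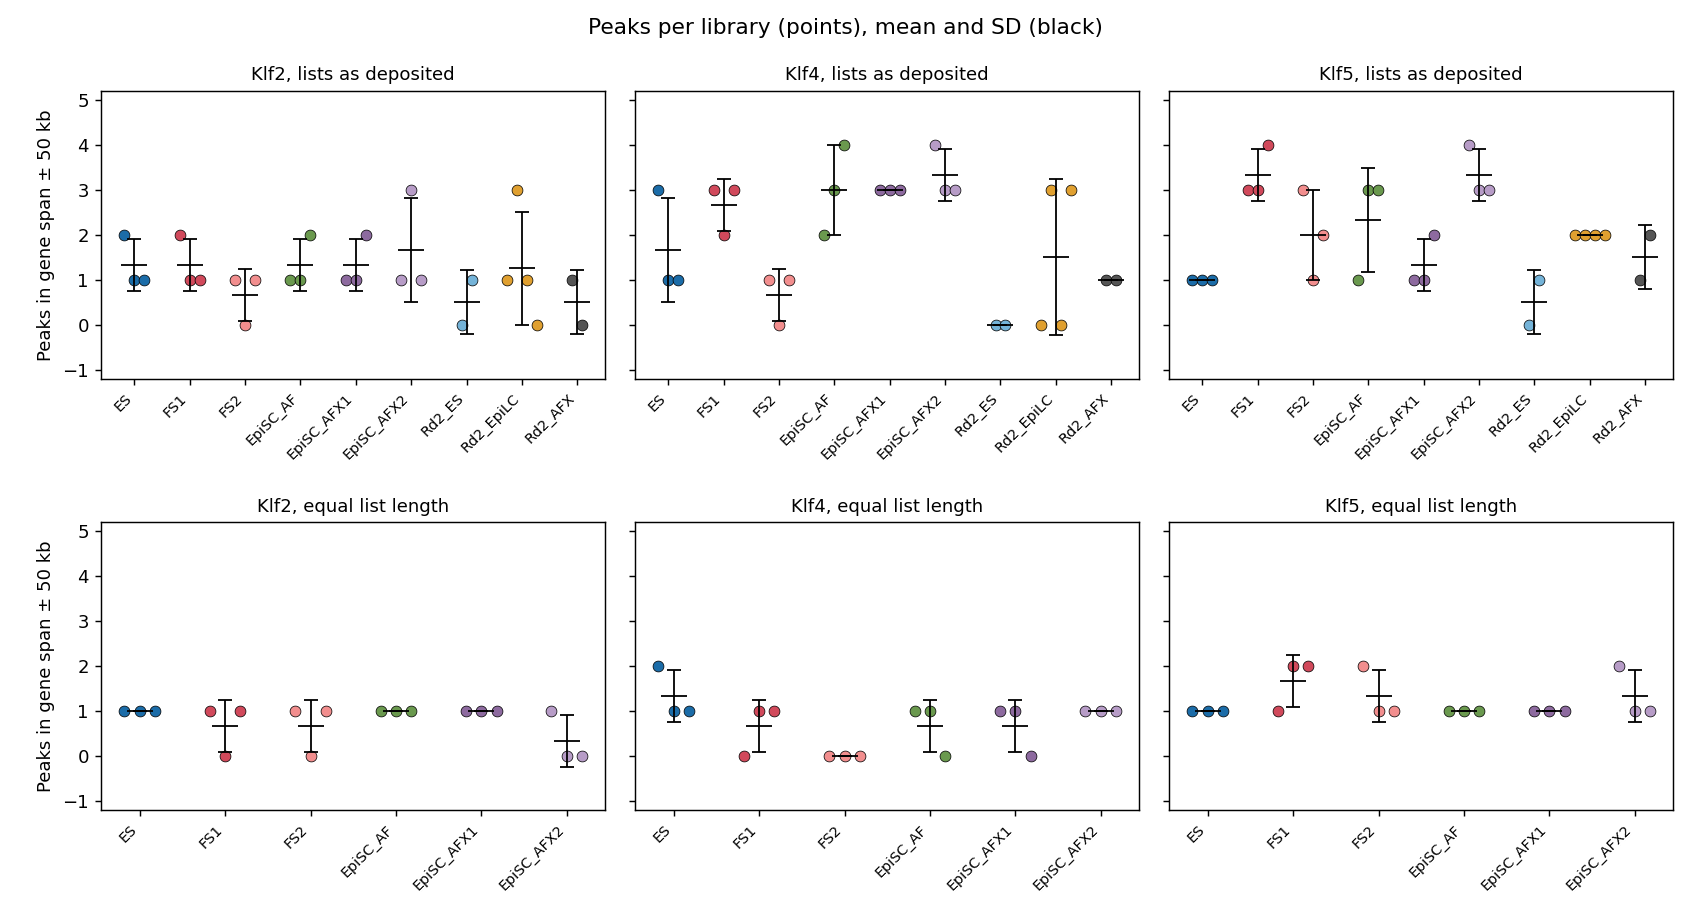
Peaks per library within the span of Klf2, Klf4 or Klf5 and 50 kb on each side (vertical axis, number of peaks), as deposited (upper row) and at equal list length (lower row), by group. Points are libraries and black bars the mean and SD, and at equal length each panel lies between 0 and 2 peaks, with all groups of a panel overlapping at least 1 other.

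The comparison with FS cells set naive against formative lists. At equal length the Klf4 window had 2, 1 and 1 peaks in ES, 0, 1 and 1 in FS1 and 0 in each FS2 library. This gave 1.33 ± 0.577 (SD, n = 3) in ES against 0.333 ± 0.516 (SD, n = 6) in FS, with overlap at 1 peak (exact permutation p = 0.119, adjusted p = 0.494). Under a −log10 q of at least 5 the difference of 1 turned to −0.333, and Klf4 had equal means as deposited, 1.67 ± 1.15 (SD, n = 3) and 1.67 ± 1.21 (SD, n = 6). Klf5 went the other way, with 1 peak in each ES library against 1, 2 and 2 in FS1 and 2, 1 and 1 in FS2, or 1 ± 0 (SD, n = 3) against 1.5 ± 0.548 (SD, n = 6; exact permutation p = 0.464, adjusted p = 0.865). As deposited, Klf5 had 1 ± 0 (SD, n = 3) against 2.67 ± 1.03 (SD, n = 6), with 1 FS2 library also at 1 (exact permutation p = 0.0833, adjusted p = 0.233). Klf2 had 1 ± 0 (SD, n = 3) against 0.667 ± 0.516 (SD, n = 6; exact permutation p = 0.5, adjusted p = 0.865), a difference that turned to −0.333 at a −log10 q of at least 5. The groups did not overlap for 0 of the 3 genes, and for 7.33% of the 17769 genes tested. The smallest p that 84 assignments allow is 0.0119, and no gene of the 17769 passed after adjustment (smallest adjusted p by the exact permutation test 0.19), although 2086 had an unadjusted p under 0.05. Of the regions in the windows, 0 of 6 had a peak in every library of one type and none of the other, against 3.81% of 22046 regions in all, and 0 also as deposited, against 3.40%.

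Against EpiSC_AFX, the primed cells with 6 libraries, Klf4 had 0.833 ± 0.408 peaks (SD, n = 6) beside the 1.33 of ES at equal length, 0.5 lower (exact permutation p = 0.5, adjusted p = 0.807). The difference of ES minus EpiSC_AFX, 0.5 here, turned to −1.5 as deposited, −0.667 at a −log10 q of at least 5 and −0.5 with peaks ranked by fold enrichment, and was 0.167 without the first ES library. As deposited, the EpiSC_AFX libraries had 3, 3, 3, 4, 3 and 3 Klf4 peaks against 3, 1 and 1 in ES, overlapping through the first ES library (exact permutation p = 0.0714, adjusted p = 0.124). In those lists 36.7% of 20114 genes passed an adjusted p of 0.05, and 0 of the 3 Klf genes did. Klf2 differed by 0.333 at equal length (exact permutation p = 0.5, adjusted p = 0.807), by −0.167 as deposited and by −0.667 at a −log10 q of at least 5. Klf5 differed by −0.167 at equal length (exact permutation p = 1, adjusted p = 1) and by −1.33 as deposited (exact permutation p = 0.155, adjusted p = 0.226). The groups did not overlap for 0 of the 3 genes, against 9.81% of 17505 genes, and 0 of 6 Klf regions parted the types, against 5.31% of regions, or 8.67% as deposited.

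Against EpiSC_AF, with 3 libraries a group and a smallest possible p of 0.1, no gene can pass. Klf2 and Klf5 had 1 peak in each of the 6 libraries at equal length, and Klf4 had 1, 1 and 0 in EpiSC_AF, a difference of 0.667 that turned to −1.33 as deposited, −0.667 at a −log10 q of at least 5 and −0.333 ranked by fold enrichment, and was 0.333 without the first ES or the third EpiSC_AF library. As deposited, Klf5 differed by −1.33 (exact permutation p = 0.4, adjusted p = 0.586) and Klf2 by 0. At a −log10 q of at least 5 the difference was −1 for Klf2, with an exact permutation p of 0.1, the smallest possible (adjusted p = 0.179), and −0.333 for Klf5. List lengths differ again at that setting. The share of all genes that reach this p there is not given, so the value is not read as particular to Klf2. At equal length, groups did not overlap for 14.8% of 17061 genes and for 0 of the 3 here, and 0 of 5 Klf regions parted them, against 8.90%. Between FS and EpiSC_AFX, Klf4 differed by −0.5 (exact permutation p = 0.242, adjusted p = 1), Klf2 by 0 and Klf5 by 0.333 (exact permutation p = 0.545, adjusted p = 1), the last turning to −0.167 at a −log10 q of at least 5. The groups did not overlap for 0.235% of 16993 genes and 0 of 3 here, and 0 of 6 Klf regions parted them, against 0.181%. As deposited, Klf4 had 1.67 ± 1.21 (SD, n = 6) in FS against 3.17 ± 0.408 (SD, n = 6), with the FS2 libraries at 1, 0 and 1 (exact permutation p = 0.0455, adjusted p = 0.979). FS1 had 2.67 ± 0.577 (SD, n = 3). The FS2 lists held 11796 to 14147 peaks, against 17701 to 29575 in EpiSC_AFX. By the same test, 843 of 20309 genes had an unadjusted p under 0.05. A p that misses the threshold does not show that the numbers were alike.

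In the Rd2 set, Klf5 had 2 peaks in each of the 4 Rd2_EpiLC libraries and 0 and 1 in Rd2_ES, so the groups did not overlap (exact permutation p = 0.0667, the smallest that 15 assignments allow, adjusted p = 0.296). Klf4 had 0 in both Rd2_ES libraries and 0, 3, 0 and 3 in Rd2_EpiLC, and Klf2 had 0 and 1 against 1, 3, 1 and 0, and these overlapped. Non-overlap was common here, in 46.3% of 18589 genes, beside Rd2_ES lists of 471 and 2576 peaks. The Klf5 region 7.17 kb beyond the gene was the 1 Klf region held by all 4 Rd2_EpiLC lists and no Rd2_ES list, as were 11.0% of 33469 regions (Fisher's exact test p = 0.0667, adjusted p = 0.605). It was not held at a list length of 471. Leaving out an Rd2_ES library leaves 1 list on that side, so counts of parting regions are not read as a result in that case. The length of the Rd2_ES lists and the cell type cannot be told apart.

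Of the other 14 Klf genes, none had groups that did not overlap between ES and FS or between ES and EpiSC_AFX at equal length, against 7.33% and 9.81% of all genes. Between ES and EpiSC_AF 1 of 12 tested did not overlap, against 14.8% of all genes: Klf15, named after its values were seen, with 0.667 ± 0.577 peaks (SD, n = 3) in ES and 3 ± 1 (SD, n = 3) in EpiSC_AF. In the Rd2 set 6 of 14 did not overlap, all higher in Rd2_EpiLC, against 46.3% of all genes. The median difference over them between ES and FS was −0.167 peaks, the same as over all genes. Klf6, Klf7 and Klf10 had a gene-end peak in 18 of 18 lists at equal length, as Klf5 did, and 3 of the 14 had one in none. Of 15 genes of the naive network and the LIF pathway, 13 were tested between ES and FS. Zfp42, which marks naive cells, had 2 ± 0 peaks in ES (SD, n = 3) against 0 in all 6 FS libraries, Prdm14, a regulator that holds back differentiation, had 1.33 ± 0.577 against 0, and Sall4, a pluripotency factor, had 0.667 ± 0.577 against 2.33 ± 0.816. These 3 of 13 did not overlap, against 7.33% of the 17769 genes, each with an exact permutation p of 0.0119 and an adjusted p of 0.19, so none passed. Between ES and EpiSC_AFX, Tbx3, Zfp42 and Prdm14 of 14 tested were higher in every ES library than in any EpiSC_AFX library, with an adjusted p of 0.138 in the exact permutation test, and 9.81% of the 17505 genes did not overlap in either direction. As deposited, Tbx3, a T-box factor of the naive network, turned to 1 ± 0 peaks in ES (SD, n = 3) against 2.17 ± 0.983 in EpiSC_AFX (SD, n = 6), Prdm14 overlapped at 1 peak, and Zfp42 stayed apart with 2 in each ES library against 0 to 1. Between ES and EpiSC_AF the same 3 genes of 13 tested were higher in every ES library, and 14.8% of all genes did not overlap, counting both directions. In the Rd2 set 5 of 15 did not overlap, all higher in Rd2_EpiLC, against 46.3%.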

How the data were processed

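ATAC-seq was run on 26 libraries, with 1 peak list each, so peaks were called per library. Per the submitters' processing notes, the authors used Trim Galore, Bowtie, Picard, MACS2 and mm10, which is GRCm38; versions and settings are not given in the sources used here. The deposited lists give per peak a fold enrichment (a ratio), a −log10 p-value, a −log10 q-value and a score, all the authors' own values, used here only to rank or filter peaks within a list; the score was not used further. The lists hold no read counts, so depth is unknown.

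Libraries were grouped by source label. Peaks were counted per gene window with Python 3.11.15, numpy 2.4.6, scipy 1.17.1 and pandas 2.3.3, after a check on simulated data. Gene spans and promoters came from RefSeq GRCm38.p6; the promoter table matched Klf2 and Klf4 of the 3 genes and not Klf5. An overlap of 1 bp counted as presence. For each comparison, peaks of its libraries that overlapped or touched were merged into union regions, with Fisher's exact test per region and adjustment over all regions. Replicate numbers did not pair libraries. The alternatives were the lists as deposited, a −log10 q of at least 5, windows of 20 and 100 kb, ranking by fold enrichment, covered base pairs, 50% coverage of a region, the replicate block and each library left out.

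The genes named are Klf2, Klf4, Klf5, all regions in their windows, other Klf or naive-network genes whose groups do not overlap between ES and FS or between ES and EpiSC_AFX, and for likeness the 3 genes of highest Pearson correlation. Klf6, Klf7, Klf10 and Klf15 were named after their values were seen. The members and lists were chosen with earlier results of these data known. Distal sequences and the Klf5 promoter were not analysed here.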

Additional observations from a re-analysis of the deposited data

Results flagged for a closer look

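In the 6 EpiSC_AFX libraries, joined as 1 group, 3 values stood apart from the rest of their group. The first EpiSC_AFX2 library had 4 peaks in the Klf4 window as deposited, where the other 5 had 3 each. At equal list length the third EpiSC_AFX1 library had 0 Klf4 peaks, where the others had 1 each, and the first EpiSC_AFX2 library had 2 Klf5 peaks, where the others had 1 each. The extra Klf5 peak is the region 26.7 kb beyond the gene, at rank 7731. The limit used is one that chance passes in about 1 in 20 groups of continuous values. That rate was not checked for whole numbers this small, where a single peak is enough.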

How the results depend on the processing

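Since no gene of any kind passed the threshold at equal length, whether a call holds could not be read for Klf2, Klf4 or Klf5, and only directions are given. Of 99 differences under other settings, 60 kept their direction, 12 reversed it, 6 turned to 0 and 21 had started from 0. List lengths differ again in the lists as deposited and at a −log10 q of at least 5, and their part in the reversals was not tested. Klf2 and Klf4 between Rd2_ES and Rd2_EpiLC turned to 0 at that q and in lists cut to 471 peaks, where no list had a peak in their windows. At a −log10 q of at least 5, the difference between ES and FS was −0.333 for Klf2 and −0.333 for Klf4, that between ES and EpiSC_AFX −0.667 for Klf2 and −0.667 for Klf4, that between ES and EpiSC_AF −0.667 for Klf4, and that between FS and EpiSC_AFX −0.167 for Klf5. In the lists as deposited it was −0.167 for Klf2 and −1.5 for Klf4 between ES and EpiSC_AFX, and −1.33 for Klf4 between ES and EpiSC_AF. Ranked by fold enrichment Klf4 gave −0.5 against EpiSC_AFX and −0.333 against EpiSC_AF, and in covered base pairs Klf5 gave −136 between FS and EpiSC_AFX; the cause was not tested. The count of Klf regions parting ES from EpiSC_AF was 1 at a −log10 q of at least 5, from 0. The share over all regions was not taken at that setting, where list lengths differ again, so this count is not read as a Klf result. The count parting Rd2_ES from Rd2_EpiLC fell from 1 to 0 in lists cut to 471 peaks. It was also 0 at a −log10 q of at least 5 and with 50% of the region covered. It stayed at 1 without any single Rd2_EpiLC library and without the first Rd2_ES library. Without the second Rd2_ES library it was 2, but the list of 471 peaks then stood alone for Rd2_ES. That value of 2 is therefore not read as a result. Of 126 differences with a library left out, 101 kept their direction, 1 turned to 0 (Klf5 between ES and EpiSC_AFX, without the first EpiSC_AFX2 library) and 24 had started from 0, among them Klf2 between FS and EpiSC_AFX, which ran from −0.133 to 0.133. Over 45 same-numbered pairs of libraries the correlation of deviations ran from −0.0431 to 0.0396, and 4 of 18 libraries resembled their own number most, so the numbers do not pair them. With the replicate block Klf4 differed by 1 between ES and FS (exact permutation adjusted p = 0.714), and there was no call for the block to change. Windows, not single elements, were counted, short ES and Rd2_ES lists limit what could be detected there, and peak presence does not measure expression.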

Other observations

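Over the 18 libraries of the first set at equal length, the genes whose peak numbers ran most like those of Klf2 were Car13 (Pearson r = 0.849), Rbis (0.806) and Reep1 (0.779), and Car13 and Rbis share part of their windows. For Klf4 they were Pcdh9 (0.829), Cks1brt (0.802) and Ing3 (0.802), and for Klf5 Coa3 (0.753), Itsn1 (0.741) and Atp5o (0.737), of which the last pair share part of their windows. The libraries share their list length and the numbers are small, so these are descriptions only.

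Between 50 and 100 kb from the genes, Klf2 was flanked by a region 78.4 kb away, chr8:72239564-72240655, with a peak in 23 of 26 lists, while Klf4 had a region 62.6 kb away, chr4:55464243-55464548, in 1 library each of ES, FS1 and EpiSC_AFX2. The first ES library also held the Klf4 regions 51.2 kb and 93.3 kb away, chr4:55475631-55475894 and chr4:55625757-55626260, which no other list held. For Klf5 the 1 region in that range lay 77.1 kb away, chr14:99390469-99390677, in 1 FS1 and 1 EpiSC_AFX2 library.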
